A study of Mus musculus with 9 samples.

Results

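The genes described here are the mouse major histocompatibility complex (MHC) class II genes and Ciita, the gene of their shared transcriptional activator. They were 10 of the 46958 genes in the count table, taken by symbol: H2-Aa, H2-Ab1, H2-Eb1, H2-DMa, H2-DMb1, H2-DMb2, H2-Oa, H2-Ob, Cd74 and Ciita. All 10 passed the filter on low counts. RNA was sequenced from plasma cells that were pulled from the spleen by magnetic beads that bind CD138, which plasma cells carry on their surface. The 9 libraries came from 9 mice, 1 spleen each, in 3 genotypes of 3 mice: WT, DH-LMP2A and kFRA, the last marked LCDD for light chain deposition disease. The mice of all genotypes were 3 months old, had not been immunized, and shared the mixed C57/BL6x129/SVxBALB/c background. The stated purity was above 80%, so each library could hold RNA of other spleen cells. The labels describe the alleles no further and do not say whether kFRA mice also carry the DH-LMP2A allele. As background, LMP2A is a membrane protein of Epstein-Barr virus that gives B cells a signal like that of the B cell receptor, and kFRA is a free light chain from a patient with the disease.

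MHC class II molecules present peptides from endosomes to CD4 T cells. Each is an alpha chain paired with a beta chain, held by the invariant chain (Cd74) until an endosome is reached. There the peptide editor H2-DM, which is restrained in B cells by H2-O, exchanges the invariant chain remnant for other peptides. B cells make class II constitutively through CIITA, which joins the factors RFX, CREB and NF-Y on the X and Y boxes of class II promoters, and Ciita is switched off as B cells become mature plasma cells.

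The X and Y boxes are shown first, because they are the feature that class II promoters share. RefSeq promoters (build GRCm38.p6, 250 bases before to 50 after the start) were found for 7 of the 10 genes. H2-Ab1, Cd74 and Ciita are named only. A pair of core motifs was searched on both strands: GCAAC, a core of the X box, and ATTGG, the Y box in which the CCAAT sequence that NF-Y binds is read on the other strand. The motifs do not overlap. In the windows below, written 5′ to 3′ on the gene's strand from 140 to 39 bases before the RefSeq start, capitals mark matches to either motif.
H2-Aa (minus strand, chr17:34287862-34287963): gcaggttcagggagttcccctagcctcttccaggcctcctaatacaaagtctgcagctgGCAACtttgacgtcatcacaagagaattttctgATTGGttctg
H2-Eb1 (plus strand, chr17:34305727-34305828): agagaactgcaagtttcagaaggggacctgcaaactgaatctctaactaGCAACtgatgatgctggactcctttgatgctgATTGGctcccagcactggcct
H2-Oa (plus strand, chr17:34092239-34092340): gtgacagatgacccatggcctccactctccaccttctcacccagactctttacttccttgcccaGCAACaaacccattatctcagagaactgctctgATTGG
H2-Ob (plus strand, chr17:34238765-34238866): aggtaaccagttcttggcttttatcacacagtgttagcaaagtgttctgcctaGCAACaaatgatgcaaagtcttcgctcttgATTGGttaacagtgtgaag

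These 4 genes held GCAAC followed by ATTGG, with 30 to 33 bases between the starts of the motifs. Among 32841 RefSeq promoters of the same length, 35.2% held GCAAC, 37.4% held ATTGG and 1.24% held the pair on one strand with starts 20 to 45 bases apart. H2-DMb1 and H2-DMb2, the paralogous beta chains of H2-DM, held ATTGG without an exact GCAAC. Only exact matches were searched. H2-DMb1 holds gtaactgatgatgct upstream of ATTGG, where H2-Eb1 holds GCAACtgatgatgct. Whether this is an X box was not tested. The Y box regions of 30 bases below begin downstream of gtaac. They are shown because the paralogs are similar in sequence and differed in their counts.
H2-DMb1 (plus strand, chr17:34153110-34153139): ctaggctgattcactcagtgATTGGtctga
H2-DMb2 (plus strand, chr17:34145139-34145168): ctaggctaagtcacttagtgATTGGactga

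H2-DMa had 2 RefSeq promoters, and neither held the pair. Both (chr17:34122582-34122881 and chr17:34125268-34125567) lie upstream of the start of the counted gene at 34135182. The sequence next to that start was not searched. A match describes letters only, and the lack of one says nothing of a factor.

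The libraries held 15449026 to 21558128 counts, and a floor of 3 counts was 0.127 to 0.205 CPM, which are counts relative to library size with TMM scaling. The floor covers counting error only, since the reads carried no molecular identifiers. kFRA replicate 2 stood apart from the other kFRA libraries: outside the immunoglobulin genes, 1679 lay 2-fold or more from the mean of the other kFRA pair, against 470 to 1360 in the remaining 8 libraries. The genotype labels were not checked against a targeted gene here. In the bulk RNA, fewer cells of a type and less RNA per cell cannot be told apart. Counts were compared with edgeR's quasi-likelihood test, with Benjamini-Hochberg adjusted p-values over 14199 genes and 0.05 as the threshold.

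Class II transcripts were abundant in all genotypes. On a scale of CPM per kilobase of exon, Cd74 ranked 4 among 13941 genes other than immunoglobulin in WT, with ranks of 9 in DH-LMP2A and 8 in kFRA. Its level per kilobase was 2376 ± 508 in the WT libraries, 2102 ± 190.2 in DH-LMP2A and 1849 ± 108 in kFRA (SD, n = 3 each). The 3 chains of the presenting molecules came next, from 307 ± 50.7 for H2-Aa to 431 ± 71.9 for H2-Eb1 in WT and from 169 ± 6.63 for H2-Aa to 242 ± 54.1 for H2-Ab1 in kFRA. The ranges of mean ± SD of H2-Eb1 and H2-Ab1 overlapped in each genotype, where the SD is a spread between mice. Within libraries H2-Eb1 had 85.7 to 90.1 counts per 100 of H2-Ab1 in DH-LMP2A, with exons of 1184 and 1637 bases. Per kilobase H2-Eb1 was thus the higher in each DH-LMP2A library. H2-DM and H2-Ob lay lower: in WT H2-DMb1 was at 43.9 ± 7.1, H2-DMa at 40.8 ± 3.07, H2-Ob at 32 ± 5.82 and H2-DMb2 at 27.8 ± 6.08. H2-DMb1 and H2-DMa lay within their spread of each other, as did H2-Ob and H2-DMb2, while the gap between H2-DMa and H2-Ob exceeded either SD. H2-Oa and Ciita were the lowest of the 10 in each genotype, at 10.5 ± 3.86 and 8.34 ± 3.45 in WT and at 1.52 ± 0.409 and 1.64 ± 0.739 in kFRA, again within their spread of each other. These spreads between mice do not compare 2 genes within a library. In each WT library H2-Ob lay above H2-DMb2, and H2-Oa above Ciita, per kilobase.

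**Figure D1:**
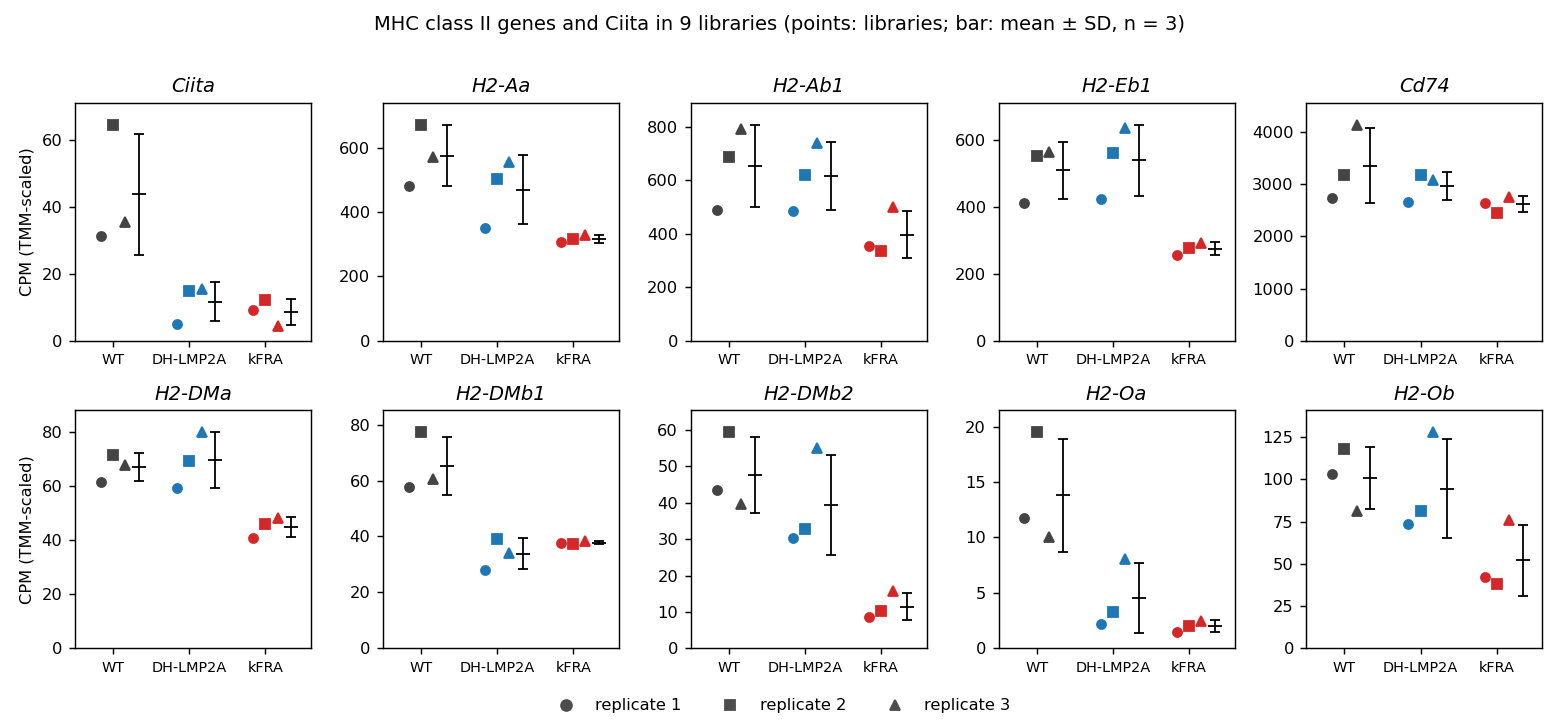
Level of each gene in the 9 libraries, in TMM-scaled CPM (y axis, from 0, a scale per gene), by genotype (x axis); symbols are replicates and the bar is the mean ± SD (n = 3). Ciita lay at 31.2 CPM or more in the WT libraries and at 15.4 CPM or less in the others, whereas for H2-Eb1 the kFRA libraries lay below the 6 others.

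In kFRA against WT, 7 of the 10 genes fell and none rose: H2-Aa, H2-Eb1, H2-DMa, H2-DMb1, H2-DMb2, H2-Oa and Ciita. Of all genes tested, 11.1% were called lower and 6.68% higher in that comparison. The log2 fold changes of the 10 ran from −2.78 to −0.36, with a median of −0.87 against −0.04 over all genes. In kFRA against DH-LMP2A, H2-Eb1, H2-DMa and H2-DMb2 fell (3 of 10, with 3.30% of all genes called lower and 1.73% higher), and in DH-LMP2A against WT, Ciita and H2-DMb1 fell (2 of 10, with 7.30% of all genes lower and 5.07% higher). No member was called higher in any comparison. H2-Ab1, H2-Ob and Cd74 passed in none. Each pair of these comparisons shares the libraries of 1 genotype. Without kFRA replicate 2 the counts against WT and DH-LMP2A were also 7 and 3, while all genes called rose from 2523 to 5632 and from 713 to 3299. Without DH-LMP2A replicate 3 the count in kFRA against DH-LMP2A was 1.

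Scaling by library size alone, without TMM factors, ended several calls and moved the median log2 fold change of all genes to 0.174 in kFRA against WT, −0.136 in kFRA against DH-LMP2A and 0.334 in DH-LMP2A against WT. In kFRA against WT the calls of H2-Aa (−0.65), H2-DMa (−0.36) and H2-DMb1 (−0.58) were lost (edgeR adjusted p = 0.0568, 0.175 and 0.0721). Relative to the median of all genes these were −0.82, −0.53 and −0.75, the same values as with TMM scaling. In DH-LMP2A against WT Ciita (−1.57) and H2-DMb1 (−0.61) were lost (edgeR adjusted p = 0.0718 and 0.0693), at −1.90 and −0.94 relative to the median. H2-DMa in kFRA against DH-LMP2A was lost with this scaling (−0.75, edgeR adjusted p = 0.0556), at −0.61 relative to the median against −0.62 with TMM scaling. It was also lost when only the 6 libraries compared were fitted (−0.63, edgeR adjusted p = 0.0787), where the main fit below gave −0.63 too.

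**Figure D2:**
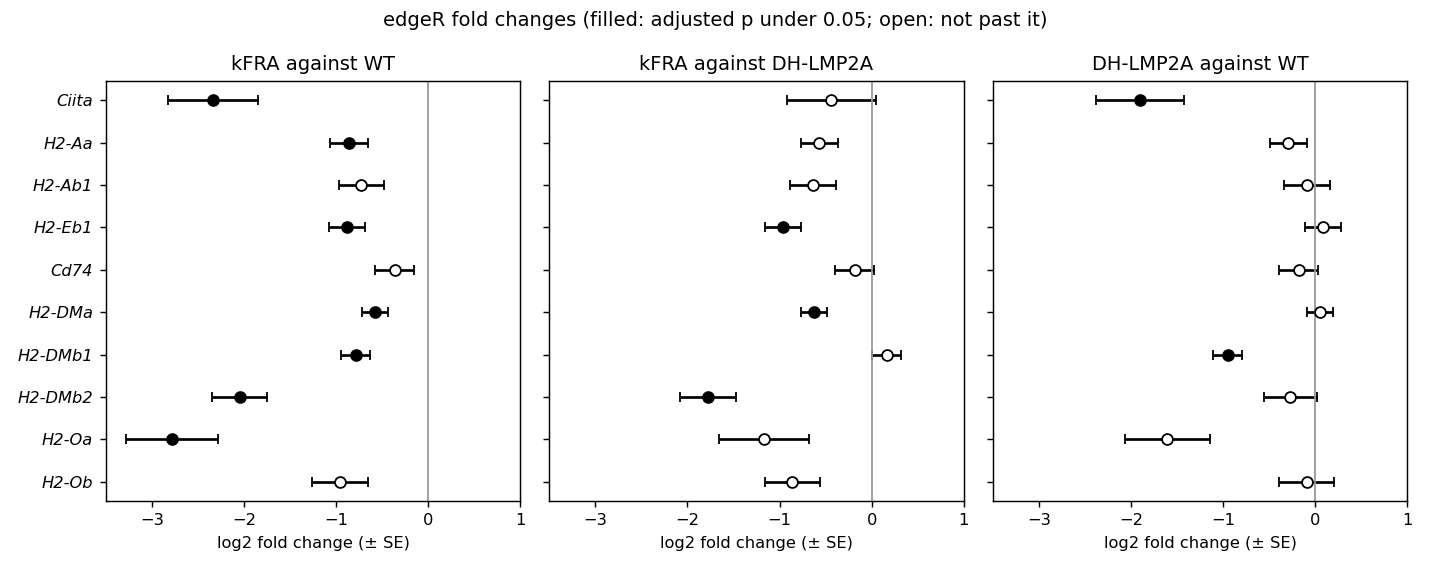
Log2 fold change ± SE (x axis) of each gene (y axis) in the 3 comparisons, from edgeR; filled points had an adjusted p-value under 0.05. 7 genes are filled in kFRA against WT, 3 in kFRA against DH-LMP2A and 2 in DH-LMP2A against WT, and each filled point lies to the left of 0.

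Ciita (chromosome 16, 10488178 to 10527564, GRCm38, plus strand) encodes the activator without which class II genes are hardly transcribed. It was at 31.2, 64.6 and 35.6 CPM in the WT libraries, at 5.12, 14.8 and 15.4 CPM in DH-LMP2A and at 9.17, 12.2 and 4.52 CPM in kFRA. All WT libraries lay above the 6 others, and DH-LMP2A and kFRA overlapped. Ciita was thus lower than WT in kFRA (log2 fold change −2.34 with SE 0.491, edgeR adjusted p = 0.0121) and in DH-LMP2A (−1.90, SE 0.479, edgeR adjusted p = 0.031). The difference between kFRA and DH-LMP2A, −0.44 (SE 0.479), did not pass (edgeR adjusted p = 0.618). The call in kFRA against WT held in the 6 fits that each left out 1 library, with log2 fold changes from −2.62 to −1.95. In DH-LMP2A against WT 4 of 6 such fits lost it: without DH-LMP2A replicate 1 (edgeR adjusted p = 0.068), DH-LMP2A replicate 2 (0.0511), WT replicate 2 (0.115) or WT replicate 3 (0.0503). Ciita shares exon bases with Dexi on the opposite strand, and the strand setting of the counting is not given in the sources used here. Counts per gene do not separate the alternative promoters of Ciita.

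Prdm1, which encodes BLIMP-1, a repressor of Ciita in plasma cells, was at 354 to 382 CPM in DH-LMP2A, 129 to 235 CPM in WT and 199.6 to 265 CPM in kFRA. The DH-LMP2A libraries were the highest, and those of kFRA and WT overlapped.

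H2-Aa and H2-Ab1 encode the alpha and beta chains of I-A, the class II molecule that all strains of this background make. H2-Aa (chromosome 17, 34282744 to 34287827, minus strand) was at 482, 672 and 572 CPM in WT, 349.9, 502 and 556 CPM in DH-LMP2A and 306, 315 and 330.3 CPM in kFRA. The kFRA libraries lay below the 6 others. H2-Aa fell in kFRA against WT (log2 fold change −0.86 with SE 0.203, edgeR adjusted p = 0.0195), a call lost without kFRA replicate 1 (edgeR adjusted p = 0.0792), kFRA replicate 3 (0.053) or WT replicate 2 (0.077). Against DH-LMP2A its log2 fold change of −0.57 (SE 0.202) missed the threshold (edgeR adjusted p = 0.148).

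H2-Ab1 (chromosome 17, 34263209 to 34269418, plus strand) was at 488, 688 and 791 CPM in WT, 486, 622 and 741 CPM in DH-LMP2A and 354, 337 and 499 CPM in kFRA. The third kFRA library overlapped the lowest of each other genotype. Its log2 fold changes in kFRA were −0.72 (SE 0.248, edgeR adjusted p = 0.0717) against WT and −0.64 (SE 0.247, edgeR adjusted p = 0.176) against DH-LMP2A. The call against WT was gained without WT replicate 1 (edgeR adjusted p = 0.0486). H2-Aa counts per 100 counts of its partner H2-Ab1 overlapped between the genotypes, at 72.3 to 98.8 in the WT libraries, 72 to 80.8 in DH-LMP2A and 66.2 to 93.3 in kFRA.

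H2-Eb1 encodes the beta chain of I-E, a second class II molecule. The gene (chromosome 17, 34305877 to 34316199, plus strand) was at 412, 553 and 564 CPM in WT, 424, 561 and 635 CPM in DH-LMP2A and 256, 279 and 294 CPM in kFRA. The kFRA libraries lay well below all 6 others, which overlapped. H2-Eb1 fell in kFRA against WT (log2 fold change −0.88 with SE 0.196, edgeR adjusted p = 0.0151) and against DH-LMP2A (−0.97, SE 0.196, edgeR adjusted p = 0.0229). The call against WT was lost without kFRA replicate 1 (edgeR adjusted p = 0.0699) or WT replicate 2 (0.0583). Against DH-LMP2A it was lost without kFRA replicate 1 (0.123), kFRA replicate 3 (0.0636), DH-LMP2A replicate 2 (0.0987) or DH-LMP2A replicate 3 (0.0945). The log2 fold change stayed between −1.06 and −0.79 in the 6 fits against DH-LMP2A.

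The partner of H2-Eb1 is the I-E alpha chain, whose gene is annotated as H2-Ea-ps because the reference strain C57BL/6 carries a promoter deletion that silences it, while BALB/c carries an active copy. H2-Ea-ps had between 0 and 9 counts in the 9 libraries and failed the filter on low counts. H2-Ea-ps was thus near the floor in all genotypes, beside abundant counts of H2-Eb1. The H2 haplotypes of the mice are not given in the sources used here. Gm10499, a predicted gene of the H2 region, was at 221 to 265 CPM in DH-LMP2A against 1.72 to 1.77 CPM in WT and 1.13 to 1.24 CPM in kFRA. The part of H2 alleles in the values of class II genes was not tested.

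Cd74, the invariant chain (chromosome 18, 60803848 to 60812646, plus strand), was at 2735, 3179 and 4135 CPM in WT, 2658, 3163 and 3068 CPM in DH-LMP2A and 2628, 2444 and 2748 CPM in kFRA. The genotypes overlapped. Its log2 fold changes were −0.36 (SE 0.213, edgeR adjusted p = 0.251) in kFRA against WT, −0.18 (SE 0.213, edgeR adjusted p = 0.636) in kFRA against DH-LMP2A and −0.18 (SE 0.213, edgeR adjusted p = 0.675) in DH-LMP2A against WT. The lower Ciita level in DH-LMP2A thus stood beside levels of Cd74, H2-Aa, H2-Ab1 and H2-Eb1 that overlapped those of WT, with log2 fold changes of −0.29 to 0.08. Per 10000 counts of Cd74, Ciita had 114, 203 and 86.1 counts in the WT libraries, 19.3, 46.6 and 50.1 in DH-LMP2A and 34.9, 50 and 16.4 in kFRA. The lowest WT value exceeded the highest of the 6 others. This ratio and the others between members were chosen after their values were seen and were not tested.

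H2-DM is a dimer of H2-DMa with either of 2 beta chains, H2-DMb1 or H2-DMb2, whose genes lie side by side. H2-DMa (chromosome 17, 34135182 to 34139101, plus strand) was at 61.5, 71.5 and 67.7 CPM in WT, 59.1, 69.2 and 79.8 CPM in DH-LMP2A and 40.8, 45.8 and 48.1 CPM in kFRA. The kFRA libraries were again below the 6 others. H2-DMa fell against WT (log2 fold change −0.57 with SE 0.14, edgeR adjusted p = 0.0223) and against DH-LMP2A (−0.63, SE 0.14, edgeR adjusted p = 0.0352). Against WT the call was lost without kFRA replicate 1 (edgeR adjusted p = 0.0939), WT replicate 2 (0.0905) or WT replicate 3 (0.0526). Against DH-LMP2A it held only without kFRA replicate 2, and was lost without kFRA replicate 1 (0.162), kFRA replicate 3 (0.067), or DH-LMP2A replicate 1 (0.0609), 2 (0.131) or 3 (0.148).

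The beta chains had different patterns over the genotypes. H2-DMb1 (chromosome 17, 34153072 to 34160230, plus strand) was at 57.7, 77.3 and 60.6 CPM in WT, 28.1, 39.2 and 34 CPM in DH-LMP2A and 37.5, 37.3 and 38.5 CPM in kFRA. Every library of both other genotypes lay below WT, and they overlapped each other. H2-DMb1 fell against WT in kFRA (log2 fold change −0.79 with SE 0.158, edgeR adjusted p = 0.00988) and in DH-LMP2A (−0.95, SE 0.158, edgeR adjusted p = 0.00477), and both calls held in the 6 fits that left out 1 library.

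H2-DMb2 (chromosome 17, 34143307 to 34151553, plus strand) was at 43.6, 59.4 and 39.7 CPM in WT, 30.3, 32.9 and 55.1 CPM in DH-LMP2A and 8.62, 10.2 and 15.7 CPM in kFRA. The kFRA libraries lay below the 6 others, and DH-LMP2A and WT overlapped. H2-DMb2 fell in kFRA against WT (log2 fold change −2.05 with SE 0.301, edgeR adjusted p = 0.0021) and against DH-LMP2A (−1.78, SE 0.299, edgeR adjusted p = 0.00869), and both calls held in all 6 fits that left out 1 library. Between DH-LMP2A and WT its log2 fold change was −0.27 (SE 0.286, edgeR adjusted p = 0.621). Per 100 counts of H2-DMb1, H2-DMb2 had 75.5, 76.8 and 65.5 counts in the WT libraries, 108, 83.9 and 162 in DH-LMP2A and 23, 27.4 and 40.7 in kFRA, so that the 3 genotypes did not overlap in this ratio. Of the distinct 75-base stretches of H2-DMb1 transcripts in GENCODE M21, 15.8% occur unchanged in H2-DMb2, and reads from these could be split or dropped by the counting. Both values are uncertain for that reason.

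**Figure D3:**
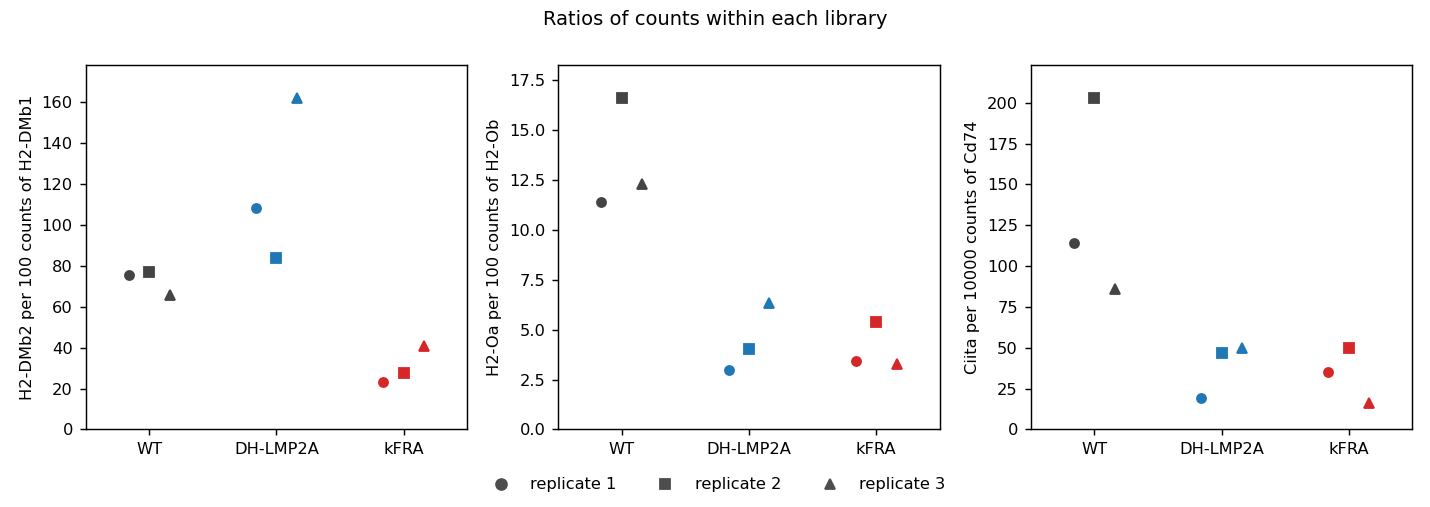
Ratio of the counts of 2 genes within each library (y axes, from 0) by genotype (x axis), with a symbol per replicate. H2-DMb2 per 100 counts of H2-DMb1 was 23 to 40.7 in kFRA and at least 65.5 elsewhere, while H2-Oa per 100 counts of H2-Ob and Ciita per 10000 counts of Cd74 were highest in WT.

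H2-O, the dimer of H2-Oa and H2-Ob, inhibits H2-DM and is made mainly by B cells. H2-Oa (chromosome 17, 34092340 to 34095234, plus strand) was at 11.8, 19.5 and 10 CPM in WT, 2.2, 3.29 and 8.1 CPM in DH-LMP2A and 1.44, 2.05 and 2.51 CPM in kFRA, the lowest library holding 21 counts. WT was above all others, and DH-LMP2A replicate 3 lay between. H2-Oa fell in kFRA against WT (log2 fold change −2.78 with SE 0.497, edgeR adjusted p = 0.00582), and the call held in the 6 fits that left out 1 library. In DH-LMP2A against WT its log2 fold change of −1.60 (SE 0.463) missed the threshold (edgeR adjusted p = 0.0526), and it passed without DH-LMP2A replicate 3 (−2.32, edgeR adjusted p = 0.0065). Exons of BC051537 overlap H2-Oa on the opposite strand, which makes its value uncertain.

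H2-Ob (chromosome 17, 34238903 to 34245907, plus strand) was at 103, 118 and 81.3 CPM in WT, 73.7, 81.6 and 128 CPM in DH-LMP2A and 42.1, 37.9 and 76.2 CPM in kFRA. The kFRA libraries were below those of WT, though replicate 3 came close. In kFRA its log2 fold changes of −0.95 against WT (SE 0.303, edgeR adjusted p = 0.0573) and −0.86 against DH-LMP2A (SE 0.303, edgeR adjusted p = 0.145) did not pass. Without kFRA replicate 3 the first passed (−1.33, edgeR adjusted p = 0.0186). H2-Oa counts per 100 counts of H2-Ob were 11.4, 16.6 and 12.3 in the WT libraries, 2.99, 4.04 and 6.32 in DH-LMP2A and 3.41, 5.4 and 3.29 in kFRA. The lowest WT ratio lay above all 6 others.

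Taking the 10 genes by library, DH-LMP2A replicate 1 was the lowest of its genotype for all 10 and replicate 3 the highest for 8. In kFRA replicate 3 was the highest for 9, with Ciita the exception. In WT replicate 2 was the highest for 7. For 4 genes, H2-Aa, H2-Eb1, H2-DMa and H2-DMb2, all kFRA libraries lay below the 6 others, a pattern found in 6.04% of the genes tested. Counting libraries of kFRA and WT alone, 8 of the 10 did not overlap, kFRA being lower, as did 20.2% of all genes. In kFRA against DH-LMP2A 4 of 10 were lower without overlap (13.9% of all genes), and in DH-LMP2A against WT 3 of 10 (19.1%).

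Other genes of the class II pathway were taken from a list of 19, of which 18 passed the filter. In kFRA against WT 4 were lower and none higher, where 11.1% of all genes tested were called lower and 6.68% higher. Lgmn, the endosomal protease legumain, was at 257 ± 25.7 against 497 ± 47.2 CPM (log2 fold change −0.95 with SE 0.17, edgeR adjusted p = 0.00581). Ctsh, a cathepsin, was at 95.8 ± 4.86 against 153 ± 10.9 CPM (−0.68, SE 0.125, edgeR adjusted p = 0.00656). Ifi30, the lysosomal thiol reductase GILT, was at 65.7 ± 14 against 117 ± 12.7 CPM (−0.83, SE 0.19, edgeR adjusted p = 0.0173). March8, a ubiquitin ligase for which class II is among the substrates, was at −0.58 (SE 0.169, edgeR adjusted p = 0.0435). The call of Ifi30 was lost without kFRA replicate 1 (edgeR adjusted p = 0.0589), WT replicate 1 (0.0572) or WT replicate 2 (0.0541), and that of March8 without any 1 of the 6 libraries (0.0532 to 0.132). With the B cell marker covariate described below, the calls of Lgmn, Ctsh and Ifi30 were lost (edgeR adjusted p = 0.141, 0.14 and 0.29), while their log2 fold changes were −1.16, −0.84 and −0.94, with wider SEs (0.328, 0.237 and 0.372). March8 passed with the covariate (−1.16, SE 0.229, edgeR adjusted p = 0.0328). Macrophages also express these enzymes, and macrophage markers were lower in the same comparison (median log2 fold change −0.80). Their part was not tested.

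In DH-LMP2A against WT, Ctsh (−0.54, SE 0.124, edgeR adjusted p = 0.0225) and March8 (−0.64, SE 0.169, edgeR adjusted p = 0.0365) were lower, and Lgmn did not pass (−0.56, SE 0.169, edgeR adjusted p = 0.0639). Of all genes tested, 7.30% were called lower in that comparison. Ctsh was lost there without DH-LMP2A replicate 2 (edgeR adjusted p = 0.0881), DH-LMP2A replicate 3 (0.0968) or WT replicate 1 (0.0724), and March8 without any 1 of the 6 (0.0522 to 0.101). None of the 18 passed in kFRA against DH-LMP2A, where the smallest p-values were those of Ifi30 (−0.55, SE 0.189, edgeR adjusted p = 0.14), Rfxank (0.52, SE 0.183, edgeR adjusted p = 0.145) and Nfya (−0.34, SE 0.13, edgeR adjusted p = 0.172). Rfxank, a subunit of RFX, passed without kFRA replicate 2 (0.70, edgeR adjusted p = 0.0303). Rfx5, the DNA-binding subunit of RFX, was at 34 ± 7.85 CPM in WT, 28.4 ± 0.756 CPM in DH-LMP2A and 33.5 ± 6.76 CPM in kFRA (SD, n = 3 each) and passed in no comparison. Ctss, the protease that cuts the invariant chain in B cells, was at 643 ± 96.1, 861 ± 68.7 and 873 ± 139 CPM in the same order and did not pass either. The median log2 fold change of the list was −0.31 in kFRA against WT, 0.04 in kFRA against DH-LMP2A and −0.25 in DH-LMP2A against WT.

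B cells, macrophages and dendritic cells express class II too, and their markers were read beside these values. The 12 B cell markers summed to 1179.8 to 1482 CPM in WT, 1659 to 2329 CPM in DH-LMP2A and 1042 to 1575 CPM in kFRA. In kFRA against WT 7 of 12 were called lower and none higher, with a median log2 fold change of −1.28, and in kFRA against DH-LMP2A 2 were lower (median −0.86). In DH-LMP2A against WT 1 was lower and 3 were higher (median −0.14), and 7 of the 12 log2 fold changes were below 0. Of all genes tested, 11.1%, 3.30% and 7.30% were called lower in these comparisons, in the order given. The shares called higher were 6.68%, 1.73% and 5.07%. The markers did not move as one: Pax5, the B cell identity factor, was at 30.5 to 78.8 CPM in WT, 12.9 to 43.4 CPM in DH-LMP2A and 2.94 to 9.8 CPM in kFRA. In the same order Ms4a1, a B cell surface protein gene, was at 48 to 85.4 CPM, 123 to 172 CPM and 39.1 to 69.3 CPM, and Cd79a, a B cell receptor subunit gene, at 344 to 469 CPM, 850.3 to 1117 CPM and 475 to 905 CPM.

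With the mean log2 CPM of the B cell markers as a covariate, none of the 10 genes passed in kFRA against WT or against DH-LMP2A by edgeR. Unadjusted p-values were under 0.05 for 2 and 3 of them, and all genes called fell from 2523 to 383 and from 713 to 239. H2-DMb2 was then at −0.99 (SE 0.316, edgeR adjusted p = 0.19) against WT and −1.07 (SE 0.24, edgeR adjusted p = 0.0851) against DH-LMP2A, and Ciita at −1.45 (SE 0.83, edgeR adjusted p = 0.486) against WT. In DH-LMP2A against WT, H2-DMb1 (−0.88, edgeR adjusted p = 0.0279) and H2-Oa (−1.08, edgeR adjusted p = 0.035) passed with the covariate, and Ciita (−1.59, edgeR adjusted p = 0.115) did not. Without the covariate DESeq2's Wald test called 9 and 3 of the 10 in the kFRA comparisons. The covariate moves with genotype, so that its part and that of the genotype cannot be told apart.

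The 8 macrophage and monocyte markers summed to 3274 to 5678 CPM in WT, 1096 to 3346 CPM in DH-LMP2A and 2145 to 3523 CPM in kFRA. Their median log2 fold change was −0.80 in kFRA against WT (1 of 8 called lower), 0.21 in kFRA against DH-LMP2A (none) and −1.04 in DH-LMP2A against WT (1 lower). In the same order 11.1%, 3.30% and 7.30% of all genes tested were called lower. DH-LMP2A replicate 3, the highest of its genotype for 8 of the 10 class II genes, had the lowest macrophage sum and the highest B cell sum (2329 CPM, against 1694 and 1659 CPM in the others), with Pax5 at 43.4 CPM. In kFRA the highest B cell sum, 1575 CPM, was that of replicate 3, which was the highest for 9 of the 10 genes. Cd79a (905 CPM) and Cd79b (404 CPM) made up most of that sum, and the other B cell markers went either way. Ms4a1 was lowest in kFRA replicate 3 (39.1 CPM, against 69.3 and 62.8 CPM), and Pax5 was highest in kFRA replicate 2 (9.8 CPM).

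The 8 dendritic cell markers summed to 61.3 to 98.5 CPM in WT. Their sums were 22.9 to 47.2 CPM in DH-LMP2A and 37.6 to 46.8 CPM in kFRA, below all WT libraries. Itgax, which encodes the integrin CD11c, made up most of the sum, at 60.2 ± 16.3 CPM in WT, 23 ± 11.1 CPM in DH-LMP2A and 27.4 ± 6.44 CPM in kFRA (SD, n = 3 each). The other markers did not move as one. Batf3 was also higher in each WT library (3.5 CPM or more) than in the 6 others (3.09 CPM or less). Flt3 had its lowest mean in WT, at 2.89 ± 0.304 CPM, against 3.67 ± 0.609 CPM in DH-LMP2A and 4.25 ± 1.24 CPM in kFRA. Itgax (log2 fold change −1.39) and Batf3 (−1.94) were called lower in DH-LMP2A against WT (edgeR adjusted p = 0.0305 and 0.00561). In kFRA against WT Clec9a was called lower (edgeR adjusted p = 0.0153) and Siglech higher (3.03, edgeR adjusted p = 0.00156), and Itgax did not pass (−1.13, edgeR adjusted p = 0.0515). Siglech was also called higher in kFRA against DH-LMP2A (1.91, edgeR adjusted p = 0.0239). Xcr1 and Zbtb46 were at 1.92 CPM or less in each library. No marker of these 3 lists was at 0 in all libraries of a genotype. The part of other cells in the class II values was not tested beyond the covariate.

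**Figure D4:**
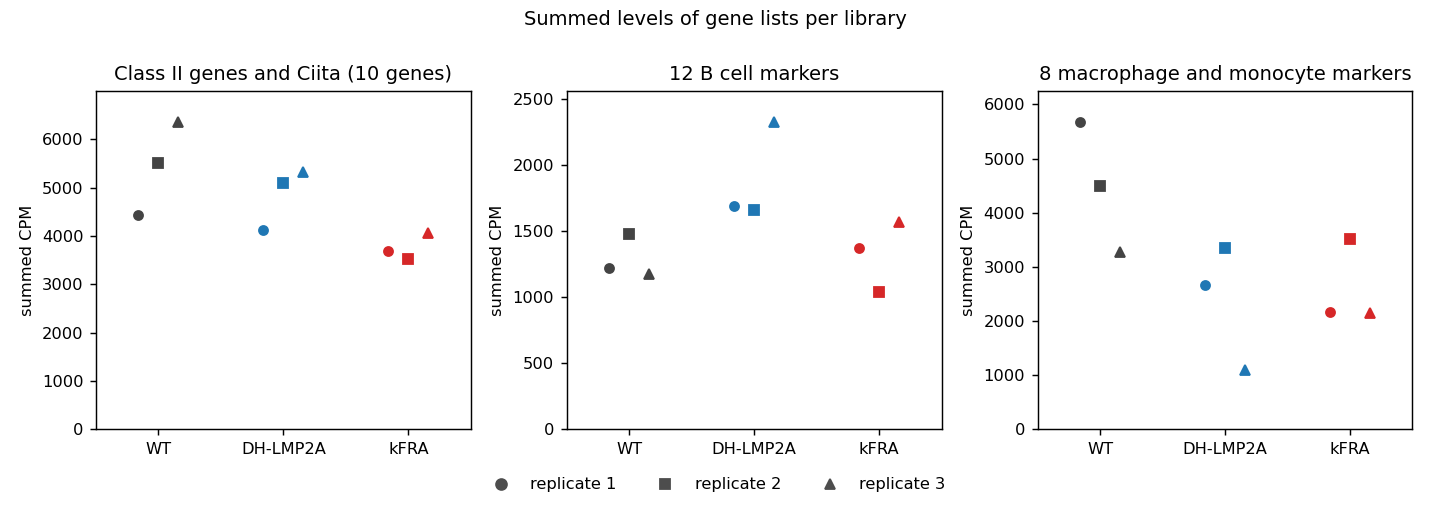
Summed CPM per library (y axes, from 0) of the class II genes and Ciita, of the B cell markers and of the macrophage and monocyte markers, by genotype (x axis), with a symbol per replicate. The class II sum was 3521 to 4057 in kFRA, 4117 to 5322 in DH-LMP2A and 4425 to 6357 in WT and is mostly Cd74. The B cell sum was highest in DH-LMP2A, where it is mostly Cd79a and Cd79b, and the other markers did not all share this order. The macrophage sums of DH-LMP2A and kFRA overlapped.

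Genes whose pattern over the 9 libraries was most like that of the class II genes were listed from 9624 genes with a mean of at least 5 CPM, by Pearson's r of log2 CPM, as a description of libraries that share genotype and depth. Nearest to the mean of H2-Aa, H2-Ab1, H2-Eb1 and Cd74 were Bahd1 (r = 0.962), Wipf2 (0.961), Icmt (0.957), Flywch1 (0.941) and Trim35 (0.94). Nearest to Ciita were Flot2 (0.972), Map3k14 (0.968), Traf3 (0.962), Fmnl3 (0.962) and Adrbk1 (0.96). Map3k14 encodes the kinase NIK and Traf3 the adaptor that promotes its degradation. Map3k14 was at 22.3 to 26.9 CPM in WT, 12.4 to 17 CPM in DH-LMP2A and 12.4 to 14.6 CPM in kFRA, without overlap between WT and the others. It was picked for its likeness to Ciita, which also separates WT from the others, so this is no separate result. Among the members, H2-Eb1 and H2-DMa were the most alike (r = 0.99) and H2-DMb1 was the least like H2-DMa and H2-Eb1 (r = 0.33 for each). Its r was 0.89 to Ciita, 0.80 to H2-Oa, 0.68 to H2-Aa, 0.53 to Cd74 and between 0.40 and 0.46 to H2-Ob, H2-Ab1 and H2-DMb2. Ciita also had r of 0.87 to H2-Oa and 0.83 to H2-Aa, and between 0.47 and 0.62 to H2-Ob, H2-Ab1, H2-DMa, H2-Eb1, Cd74 and H2-DMb2.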

How the data were processed

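The authors deposited raw read counts per gene for 9 libraries of polyadenylated RNA made with a strand-specific kit, and a gene length, in the layout of featureCounts per the file headers. STAR 2.4.0a, featureCounts of Subread 1.5.0-p3 and the builds mm10 and GRCm38 are named in the submitters' processing notes. The annotation release, strand setting and treatment of multiply mapping reads are not given in the sources used here. Of the 44130 table genes whose symbol is in GENCODE M21, 99.84% overlap its GRCm38 span, and coordinates are those of the table. Groups are the labelled genotypes.

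Genes were filtered by edgeR's filterByExpr (14199 of 46958 kept) and scaled with TMM (trimmed mean of M values) factors. All 9 libraries were fitted with a coefficient per genotype (edgeR 4.0.16, R 4.3.3), and 3 contrasts were tested 2-sided. The SE is the log2 fold change divided by the square root of F. Log2 CPM used a prior count of 2. The fit was tested on simulated data with 200 changed genes in kFRA against WT. It recovered 48% of the 2-fold and 96% of the 4-fold changes, and 6.49% of its calls were false. A gene that did not pass can thus still have changed by 2-fold. No replicate pair agreed within sampling noise (chi-square per degree of freedom 17.3 to 164). Alternatives were other scaling (DESeq2 1.42.0 size factors, library size), filters, no immunoglobulin genes, a replicate block, a B cell covariate, 6 libraries, DESeq2's Wald test, a threshold of 0.01 and each library left out. The members and lists were chosen with earlier results of these data known. Named genes are the 10 members, 3 pathway genes per comparison with the smallest p-values, 4 B cell markers (1 is not reported here), H2-Ea-ps, Gm10499 and the 5 genes most like Ciita or the mean of H2-Aa, H2-Ab1, H2-Eb1 and Cd74. March8 in kFRA against WT, Prdm1, Rfx5, Ctss, the dendritic cell markers, Cd8b1 and H2-Eb2 were named after their values were seen. So were Cd79b, Jchain, Mzb1, Derl3, Tnfrsf17, Hba-a1 and Epor. Dendritic cell, T cell, erythroid, plasma cell and cycling lists were also read.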

Additional observations from a re-analysis of the deposited data

How the results depend on the processing

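Directions and calls of the 10 genes were compared over 15 alternatives per gene and comparison. Of 150 such values, 124 kept direction and side of the threshold in kFRA against WT, 134 in kFRA against DH-LMP2A and 121 in DH-LMP2A against WT. The number of members called (7, 3 and 2 in that order) ranged over fits that left out 1 library from 4 to 8, 1 to 3 and 1 to 3. It fell to 3, 1 and 1 at an adjusted p-value under 0.01. With the B cell marker covariate it was 0 in kFRA against WT and 0 in kFRA against DH-LMP2A by edgeR (2 and 3 members at an unadjusted p under 0.05). Library size alone gave 4 in kFRA against WT and 0 in DH-LMP2A against WT by edgeR (3 at an unadjusted p under 0.05, 3 by DESeq2's Wald test); it moved the median of all genes to 0.174 and 0.334 on the log2 scale. Relative to those medians Ciita was at −2.25 and −1.90. All genes called ranged from 383 to 5632, 239 to 3299 and 765 to 2571 over the alternatives (2523, 713 and 1756).

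Directions turned for log2 fold changes near 0 in DH-LMP2A against WT. With library size alone Cd74 was at 0.19, H2-Aa 0.05, H2-Ab1 0.27, H2-DMb2 0.04 and H2-Ob 0.22, and with the covariate H2-DMb2 was at 0.08 and H2-Ob at 0.24. Leaving out 1 library gave Cd74 −0.30 to 0, H2-Ab1 −0.26 to 0.07, H2-DMa −0.05 to 0.15, H2-Eb1 −0.05 to 0.22 and H2-Ob −0.37 to 0.05. With the covariate, log2 fold changes in the kFRA comparisons turned too, and not only from values near 0. In kFRA against DH-LMP2A Ciita went from −0.44 to 0.14. H2-Oa went there from −1.17 (SE 0.489, edgeR adjusted p = 0.2) to 0.16. In kFRA against WT H2-Ob went from −0.95 to 0.03. Beyond what the alternatives' construction shows, the cause was not tested.

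The 9 libraries came from 9 mice, so the replicate numbers name different mice. As a description, 4 of 9 same-number pairs had deviations from their genotype means correlated above 0.1 (r −0.21 to 0.2). Of the 9 libraries, 1 correlated best with its own number. Deviations within a genotype depend on one another, and a shared batch was not tested. With the replicate block 9, 3 and 3 members were called: H2-Ab1 (−0.71, edgeR adjusted p = 0.0209) and H2-Ob (−1.04, 0.0334) were gained in kFRA against WT and H2-Oa (−1.76, 0.0282) in DH-LMP2A against WT. DESeq2's Wald test gained these too and also called 9, 3 and 3.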

Other observations

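H2-Eb2, a class II beta chain gene next to H2-Eb1, is not among the 10 genes and was named after its values were seen. It was at 24.8, 28.6 and 35.4 CPM in WT, 25.7, 30.5 and 30.5 CPM in DH-LMP2A and 6.84, 10.4 and 10.9 CPM in kFRA. The kFRA libraries lay below the 6 others, with log2 fold changes of −1.65 against WT (SE 0.204, edgeR adjusted p = 0.000729) and −1.62 against DH-LMP2A (SE 0.204, edgeR adjusted p = 0.00144). Both calls held in the 6 fits that left out 1 library. With the B cell marker covariate the call against DH-LMP2A held, and that against WT was lost (−1.61, edgeR adjusted p = 0.0634). Its neighbour H2-Eb1 fell by less in the same comparisons, by 0.88 and 0.97 on the log2 scale.

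Other marker lists were read in the same libraries. Plasma cell markers summed to 19269.6 to 24509.8 CPM in WT, 34682 to 47709 CPM in DH-LMP2A and 21001 to 33129.6 CPM in kFRA. The DH-LMP2A sums were the highest, but each sum is mostly Jchain (14680 to 38647 CPM over the 9 libraries). The list did not move as one. Mzb1 was highest in DH-LMP2A (3236 to 3950.2 CPM), Derl3 in kFRA (505 to 955 CPM) and Tnfrsf17 in WT (41.3 to 59.5 CPM). The 8 erythroid genes summed to 46.2 to 179 CPM in WT, 1243 to 6164 CPM in DH-LMP2A and 555 to 1399 CPM in kFRA, with every WT library below the 6 others. The sums were mostly Hba-a1 in DH-LMP2A (1129 to 5856 CPM) and in kFRA (519 to 1327 CPM), against 17.1 to 139.9 CPM in WT. Epor went the other way, at 10.2 ± 2.07 CPM in WT, 6.1 ± 1.68 CPM in DH-LMP2A and 8.52 ± 1.78 CPM in kFRA. T cell markers summed to 44.4 to 98.1 CPM in WT, 75.8 to 122 CPM in DH-LMP2A and 44.3 to 65.5 CPM in kFRA, without overlap between DH-LMP2A and kFRA. Among them Cd8b1 was at 0.734 ± 0.153 CPM in WT, 38.8 ± 10.1 CPM in DH-LMP2A and 13.3 ± 3.22 CPM in kFRA (SD, n = 3 each) and was called in each comparison by edgeR. Cd8b1 was the only 1 of the 8 T cell markers whose own libraries did not overlap between DH-LMP2A and kFRA. Cycling genes summed to 344 to 457 CPM in WT, 467 to 694 CPM in DH-LMP2A and 189.9 to 621 CPM in kFRA, where replicate 2 was the highest. Their part in the class II values was not tested.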
